A study of Mus musculus with 6 samples.

Results

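Peaks listed after capture of methylated, CpG-dense DNA were described at Mecom and 8 genes of the Prdm family. The CpG content of the peaks themselves was not measured here. The cells were I/11, a mouse erythroblast line made from the fetal liver of p53-deficient embryos (E12.5). The 9 genes (Mecom, Prdm1, Prdm6, Prdm8, Prdm11, Prdm12, Prdm13, Prdm14 and Prdm16) were picked from 21900 protein-coding genes with earlier results of these data known, so their peak counts are a description and carry no test. A peak was counted for a gene when it overlapped the RefSeq gene body, or the 10 kb on either side, by at least 1 bp. By that rule 24 of 12963 peaks belonged to the 9 genes, and overlapping peaks joined into 16 of 10085 regions. No list had a peak at Prdm8 or Prdm13, so 7 of the 9 carried all of them. The gene table has no exons, so exonic, intronic and untranslated positions could not be told apart.

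The 4 peak lists came from cells that carried lentiviral short hairpin RNA 133 or 14 targeting Plcg1, which encodes phospholipase C gamma 1, and were selected with 1 ug/ml puromycin for 48 h. Until differentiation, cells grew in medium with 1 U/ml erythropoietin, stem cell factor and dexamethasone. They were taken 72 h after infection, before differentiation (0 h), or 96 h after infection, following 24 h in medium with 10 U/ml erythropoietin and holo-transferrin, a medium for which the labels list neither of the other factors. All groups share the p53-deficient background, the virus and the selection. Each group is 1 library, the scrambled-hairpin libraries at 0 h and 24 h were not analysed here, and genomic DNA gives no reading of the knockdown or of erythroid markers. A listed peak carries no height, and the direction of its difference from the control, if one was used in calling it, is unknown, so below it is only a place that a list names. Read depth is unknown. The lists held 3900 (hairpin 133, 0 h), 3437 (hairpin 14, 0 h), 2960 (hairpin 133, 24 h) and 2666 peaks (hairpin 14, 24 h).

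As background, PRDM proteins carry a PR domain, related to the SET domain of histone methyltransferases, and most carry zinc fingers that bind DNA. Many act as repressors by recruiting partners such as the CtBP corepressors, histone deacetylases and the lysine methyltransferase G9a (Ehmt2). In blood, Mecom and Prdm16 are known for keeping haematopoietic stem cells, and forced expression of EVI1, a product of Mecom, disturbs erythroid maturation. Prdm1 (Blimp-1) directs plasma cell and germ cell fates. Known mainly outside blood are Prdm14 in pluripotent and primordial germ cells, Prdm12 in pain-sensing neurons, Prdm8 and Prdm13 in other neurons, and Prdm6 in vascular smooth muscle.

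The list of hairpin 14 at 24 h, the shortest of the 4, held the most peaks at these genes. It had 11, against 4 with the same hairpin at 0 h, 5 with hairpin 133 at 0 h and 4 with hairpin 133 at 24 h. As a share of the list this was 0.413% (exact binomial 95% interval 0.206 to 0.737%), against 0.116% (0.0317 to 0.298%), 0.128% (0.0416 to 0.299%) and 0.135% (0.0368 to 0.346%). The interval of hairpin 14 at 24 h overlaps each of the others, and all of them cover counting error only. They take peaks as independent, although 3 of the 11 lie within 501 bp at Prdm14. The genes were chosen with these counts in view, so the intervals are no test. The extra peaks fell in genes that other lists also touched. Prdm12 and Prdm14 held 3 each in that list, Mecom and Prdm16 held 2 each and Prdm6 held 1.

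**Figure D1:**
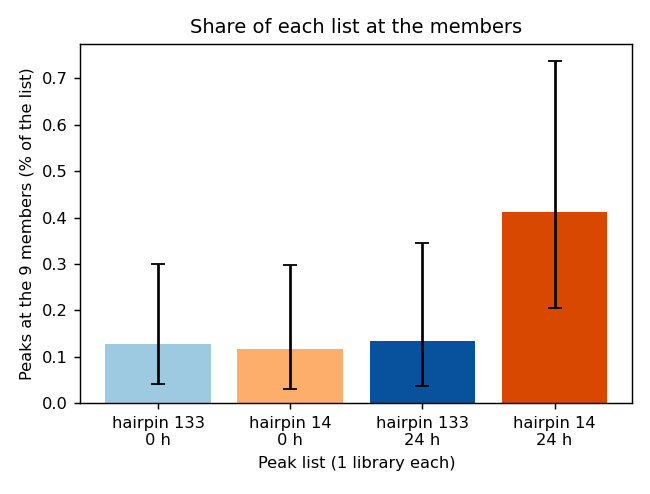
Bars give the peaks at the 9 genes as a percentage of all peaks of each list, and the error bars are exact binomial 95% intervals (1 library per bar). The intervals take peaks as independent and are no test, since the genes were chosen with these counts in view. The bar of hairpin 14 at 24 h stands at 0.413% and the other 3 lie between 0.116% and 0.135%.

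Counted by gene instead of by peak, the lists were closer together. With hairpin 133, 5 of the 9 genes had a peak at 0 h and 4 at 24 h, and with hairpin 14 it was 4 at 0 h and 5 at 24 h. Over all protein-coding genes the shares with a peak were 12.7% (hairpin 133) and 11.0% (hairpin 14) at 0 h, and 10.5% and 9.71% at 24 h. In any list it was 7 of the 9 genes, beside 26.0% of all protein-coding genes. Because the genes were chosen with these counts in view and were not matched to others on length, nothing is read from that difference. Their bodies run from 10.1 kb (Prdm13) to 558 kb (Mecom), and long genes have more room for a peak.

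**Figure D2:**
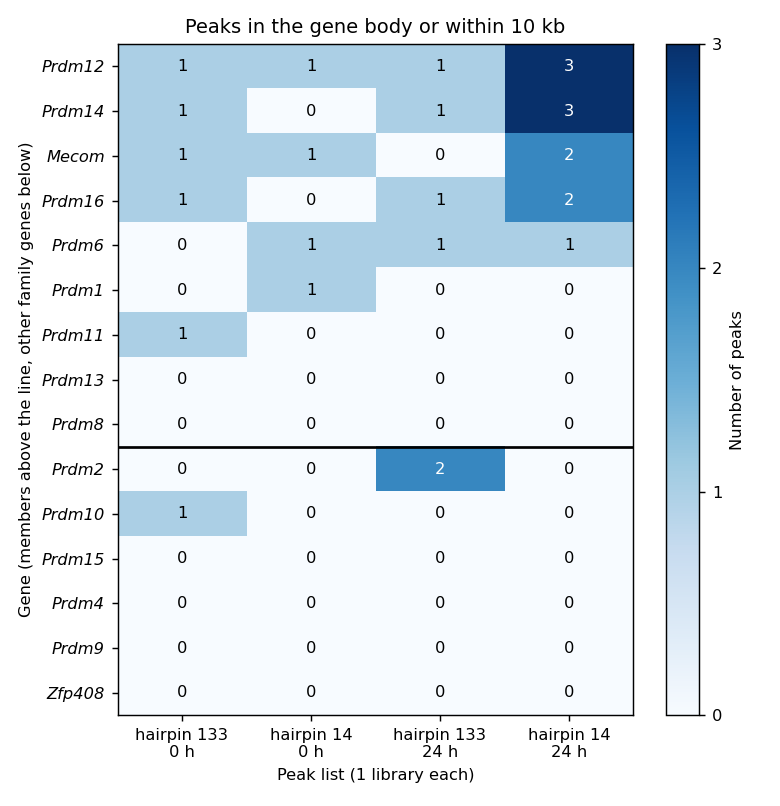
Each cell gives the number of peaks in the gene body or within 10 kb for one gene (rows) in one list (columns), with darker blue for more peaks. Above the line, 7 of the 9 genes have a peak somewhere and Prdm12 has one in every column; below it, only Prdm2 and Prdm10 of the 6 other family genes shown do.

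Mecom lies on mouse chromosome 3 from 29951296 to 30509759 (mm10) and held 3 regions, all in its body. It has a pair of listed starts. The distal one, at 30509759, yields the long MDS1-EVI1 form with the PR domain, and the internal one, at 30013204, yields EVI1, which lacks that domain. Both hairpins had a peak at 0 h with the same coordinates, 30507293 to 30507443, centred 2.39 kb downstream of the distal start. At 24 h that place was in neither list. Hairpin 14 instead had a peak at 30509223 to 30509373, centred 0.461 kb downstream of the distal start, and another at 30083344 to 30083494, which lies 70.2 kb upstream of the internal start. Hairpin 133 had no peak at Mecom at 24 h, and without the library of hairpin 14 at 24 h the gene keeps 1 region. Near the internal start itself no peak was listed, and the closest peak beyond the 10 kb flanks was 346 kb away. The region at 30509223 is the only one of the 16 (6.25%) within 500 bp of a listed start. Of all regions in protein-coding windows, 12.7% lay that close to a listed start, or to a body end without one. A gap of 336 bp separates the region at 30509223 from the window printed here for the distal start.

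The windows around the Mecom starts are shown because the assay captures CpG-dense DNA and because the region at 30509223 is centred 0.461 kb from the distal start. Each runs from 250 bases before the start to 50 after it (RefSeq, GRCm38.p6), written 5′ to 3′ on the minus strand of chromosome 3, with every CpG in capitals. The distal window (chr3:30509710-30510009) holds 19 CpG and the internal window (chr3:30013155-30013454) holds 9.
Mecom distal start: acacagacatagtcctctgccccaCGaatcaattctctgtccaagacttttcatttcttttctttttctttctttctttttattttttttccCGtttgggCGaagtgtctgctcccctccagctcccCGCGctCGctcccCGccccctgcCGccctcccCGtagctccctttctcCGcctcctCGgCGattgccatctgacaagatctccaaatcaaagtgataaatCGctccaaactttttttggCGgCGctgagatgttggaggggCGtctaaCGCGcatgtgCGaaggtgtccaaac
Mecom internal start: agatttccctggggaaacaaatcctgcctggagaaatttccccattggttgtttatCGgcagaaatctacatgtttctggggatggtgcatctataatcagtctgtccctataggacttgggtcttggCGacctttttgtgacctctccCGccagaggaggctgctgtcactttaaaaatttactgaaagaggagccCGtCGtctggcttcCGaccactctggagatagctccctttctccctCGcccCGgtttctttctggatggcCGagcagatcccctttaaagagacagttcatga
Of all 32851 listed windows, 28.1% have at least as many CpG as the distal one and 45.8% as the internal one. No peak of the 4 lists overlapped either window.

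Prdm16, the closest relative of Mecom in the family, lies on chromosome 4 from 154316122 to 154637360 and held the most regions, 4, each in a single list. With hairpin 133 a peak lay at 154350785 to 154350935 at 0 h and at 154482906 to 154483056 at 24 h. With hairpin 14 there was none at 0 h, and at 24 h there were 2, at 154393520 to 154393670 and 154541106 to 154541256. They are 286, 154, 243 and 95.7 kb downstream of the listed start at 154636873, spread over the 321 kb body. Thus no place in Prdm16 was listed with both hairpins or at both times. Over a window of that length this is 1.17 regions per 100 kb, compared with 0.519 for Mecom. The start window of Prdm16 holds 24 CpG and no peak. Outside the window, the nearest peak was 29.0 kb from the gene and was listed at 24 h with both hairpins.

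Prdm1 lies on chromosome 10 from 44437174 to 44528558 and had 1 region, at 44500014 to 44500164, with hairpin 14 at 0 h. It is inside the RefSeq body but 41.3 kb upstream of the listed start at 44458748, because the body in the table extends beyond that start. The start window has 20 CpG and no peak. Prdm11, on chromosome 2 from 92965151 to 93046165, also had 1 region, at 93028014 to 93028164, with hairpin 133 at 0 h and 18.1 kb downstream of its start. That start window is the richest in CpG among those of the 9 genes, with 32, a number that 9.52% of all windows reach. For both genes the call rests on 1 peak of 1 library.

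Prdm12 was the only one of the 9 genes with a peak in all 4 lists, and the only one with a region of both hairpins at both times. It lies on chromosome 2 from 31635026 to 31655795. At 0 h both hairpins had a peak at 31635653 to 31635803. At 24 h both had it at 31635660 to 31635810, shifted by 7 bp. The merged region is centred 0.706 kb inside the lower-coordinate end of the body but 4.31 kb upstream of the listed start at 31640037, on the plus strand, since the body in the table begins before that start. Hairpin 14 at 24 h had 2 more peaks, at 31644038 to 31644188, which is 4.08 kb downstream of the start, and at 31659186 to 31659336, which is 3391 bp beyond the end of the body. That last peak is the only one of the 16 regions outside a gene body. No other gene of the table covers any of the 16.

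The start window of Prdm12 (RefSeq, GRCm38.p6, chr2:31639787-31640086, plus strand) is shown since regions were listed on either side of it, at nearly equal distance, and none in it. It holds 17 CpG, in capitals.
Prdm12 start: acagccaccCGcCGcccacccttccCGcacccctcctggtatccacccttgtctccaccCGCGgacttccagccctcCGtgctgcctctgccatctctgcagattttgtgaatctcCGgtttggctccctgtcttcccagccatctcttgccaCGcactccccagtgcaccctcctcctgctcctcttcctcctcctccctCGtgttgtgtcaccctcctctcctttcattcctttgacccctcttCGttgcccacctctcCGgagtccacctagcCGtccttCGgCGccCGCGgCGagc
At least as many CpG occur in 31.4% of all windows.

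Prdm14, on chromosome 1 from 13113428 to 13127163, held 5 peaks within 501 bp, in 2 regions near the higher-coordinate end of its body. A gap of 62 bp separates the 2 regions. With hairpin 133 the peak was at 13126345 to 13126495 at 0 h and at 13126560 to 13126710 at 24 h, 215 bp farther on. Hairpin 14 had none at 0 h. At 24 h it had 3, at 13126210 to 13126360, 13126347 to 13126497 and 13126560 to 13126710. The last has the same coordinates as that of hairpin 133 at the same time, and the middle one is offset by 2 bp from that of hairpin 133 at 0 h. The earlier 2 of the 3 overlap each other by 14 bp, which happens for 1 pair of neighbouring peaks in this list of 2666 and for 1 pair in the remaining 3 lists. The regions are centred 0.809 and 0.528 kb from the body end, and the table of starts used here has no entry for Prdm14, so its strand was not used.

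**Figure D3:**
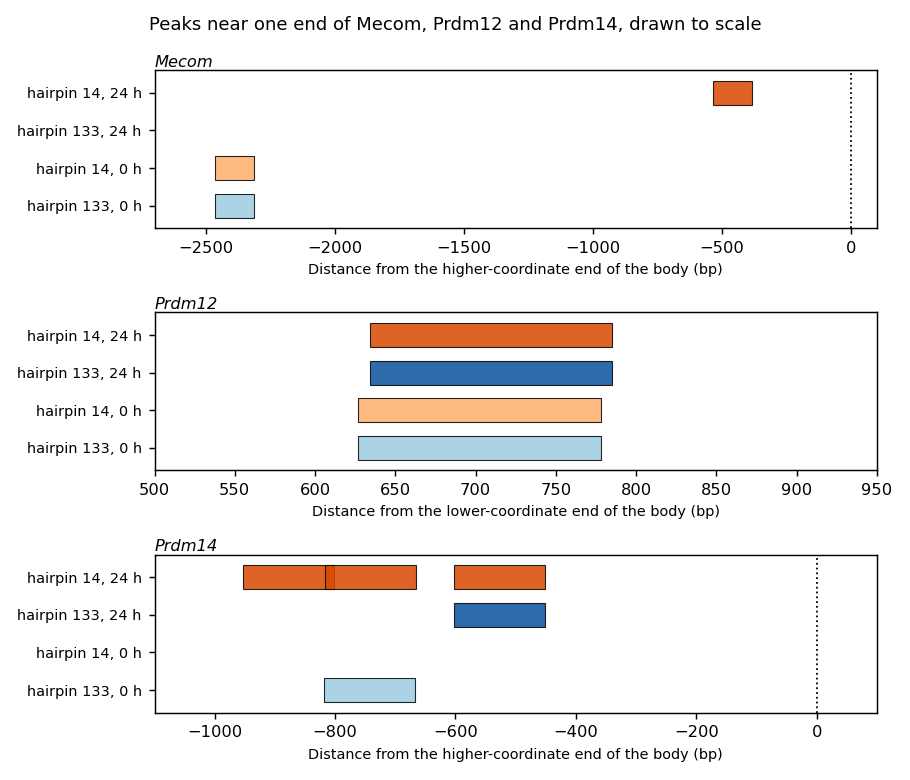
Boxes are single peaks drawn to scale by distance in bp from one end of the gene body, with 1 row per list. A dotted line marks that end for Mecom and Prdm14, and the panel of Prdm12 does not reach it. Peaks of Mecom and Prdm12 farther along the gene are not drawn. Prdm12 has the same place in all 4 lists with a 7 bp shift between times, and Prdm14 has 3 neighbouring peaks with hairpin 14 at 24 h. Mecom has a place with both hairpins at 0 h and a different place with hairpin 14 alone at 24 h.

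Prdm6 lies on chromosome 18 from 53463955 to 53575904 and held 2 regions. At 24 h both hairpins had a peak at 53472831 to 53472981, 8.95 kb from the lower-coordinate end of the body. Hairpin 14 at 0 h had another at 53498125 to 53498275, 34.2 kb from that end. Hairpin 133 at 0 h had none. Prdm8 (chromosome 5, 98167203 to 98187454) and Prdm13 (chromosome 4, 21675865 to 21685963) had no peak, and the nearest peaks lay 96.8 and 96.4 kb away. Their start windows hold 12 and 8 CpG. Absence from a list of called peaks does not show that a place is unmethylated.

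**Figure D4:**
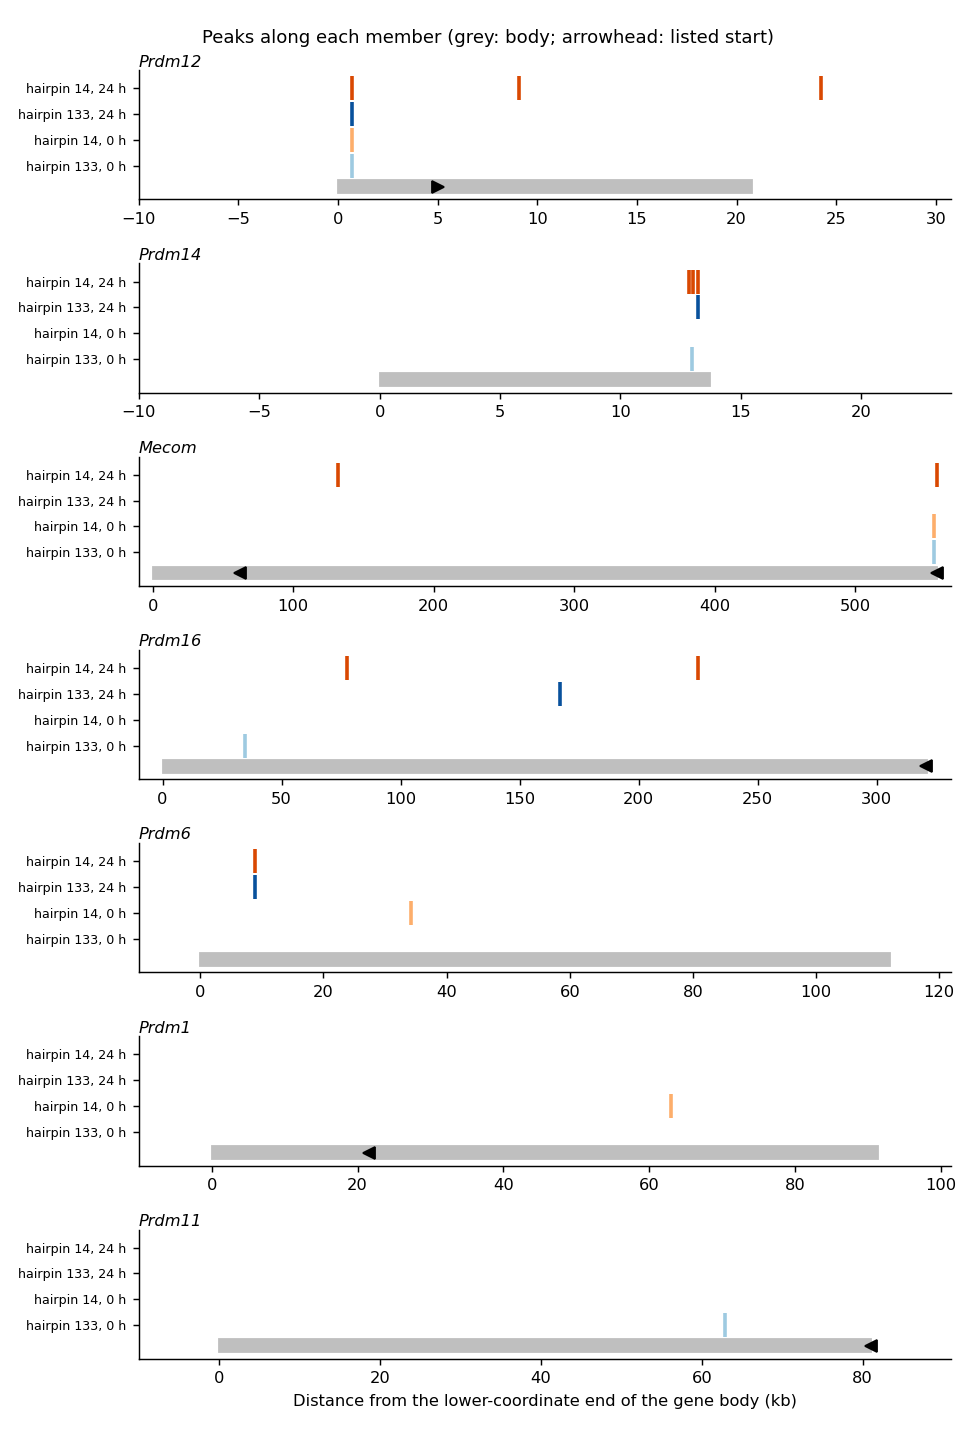
Each panel shows a gene body (grey bar) with peak centres as ticks, 1 row per list, by distance in kb from the lower-coordinate end, with 10 kb drawn on either side. All peaks of Prdm14 lie near one end of the body, those of Prdm12 share a place near one end in all 4 lists, with 2 more farther along for hairpin 14 at 24 h, and the 4 ticks of Prdm16 lie at 4 separate places.

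Regions listed with both hairpins were found at Mecom and Prdm12 at 0 h, and at Prdm6, Prdm12 and Prdm14 at 24 h. That is 2 of the 9 genes at 0 h, when 4.61% of all protein-coding genes had such a region, and 3 of the 9 at 24 h, when 3.37% had one. A region in all 4 lists was found at 1 gene of the 9, Prdm12, and at 1.28% of all protein-coding genes. Since the genes were chosen with these counts in view and not matched on length, nothing is read from these differences. All of these shared regions rest on peaks whose start and end are identical with both hairpins. Of the 24 peaks, 10 (41.7%) have identical coordinates in the other list of their time. They form 5 pairs, of which 2 are at the same region of Prdm12. Over all peaks of the series 25.4% have such a match, which lies inside the exact binomial 95% interval of the 41.7% (22.1 to 63.4%). The interval takes peaks as independent, although identical peaks come in pairs, and is no test. Without these identical peaks no gene had a region of both hairpins at either time, by construction for coordinates shared within a time. Lists of the same time may have been made with a common control library, which the labels do not say, and its part in these identical places was not tested.

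Most regions were listed once. Of the 16, 11 (68.8%) came from a single list, 4 from 2 lists, 0 from 3 and 1 from all 4. Of all 10085 regions 79.2% came from a single list, 15.4% from 2 lists, 3.01% from 3 and 2.36% from all 4. The single-list regions were 6 with hairpin 14 at 24 h, 2 each with hairpin 133 and hairpin 14 at 0 h, and 1 with hairpin 133 at 24 h. Leaving out the library of hairpin 14 at 24 h takes the 16 regions to 10, with Mecom at 1, Prdm12 at 1 and Prdm16 at 2.

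The number of regions followed gene length only in part. The longest bodies, Mecom (558 kb) and Prdm16 (321 kb), held 3 and 4 regions, or 0.519 and 1.17 per 100 kb of window. Prdm6 (112 kb) held 2, and Prdm1 (91.4 kb) and Prdm11 (81.0 kb) held 1 each. Prdm12 and Prdm14, with bodies of 20.8 and 13.7 kb, held 3 and 2, or 7.36 and 5.93 per 100 kb of window, while Prdm6 held 1.52, Prdm11 0.990 and Prdm1 0.898. The 2 regions of Prdm14 lie only 62 bp apart but are counted separately. Among the 13264 protein-coding genes of at most 25 kb, 17.1% had any region and 3.54% had 2 or more. Prdm8 and Prdm13, of like size, had none. Mecom, Prdm12 and Prdm16 are among the 3.15% of all protein-coding genes with 3 or more regions. The genes were chosen with these counts in view, so nothing is read from their densities or from the shares beside them.

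Position in the gene was not used in choosing the genes. Within 1 kb of a listed start, or of a body end where no start is listed, lay 3 of the 16 regions (18.8%), the one at 30509223 in Mecom and both of Prdm14. Those of Prdm14 are 62 bp apart. For all 7157 regions in the windows of protein-coding genes the share was 18.4%. Measured from either body end for every gene it was 4 of the 16, with the shared region of Prdm12 added, beside 18.6% of all. A single region of the 16 amounts to 6.25%, so these shares cannot be told apart.

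None of the 8 start windows listed for 7 of the genes overlapped a peak, and among all 32851 windows 1.46% did. The 8 windows hold 8 to 32 CpG with a median of 18.0, while the median of all windows is 7.0. By CpG content, 0.144% of windows with at most 4 CpG overlapped a peak, 1.23% of those with 5 to 9, 3.23% of those with 10 to 19 and 2.37% of those with 20 or more. With 8 windows a share of that size could not be seen.

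**Figure D5:**
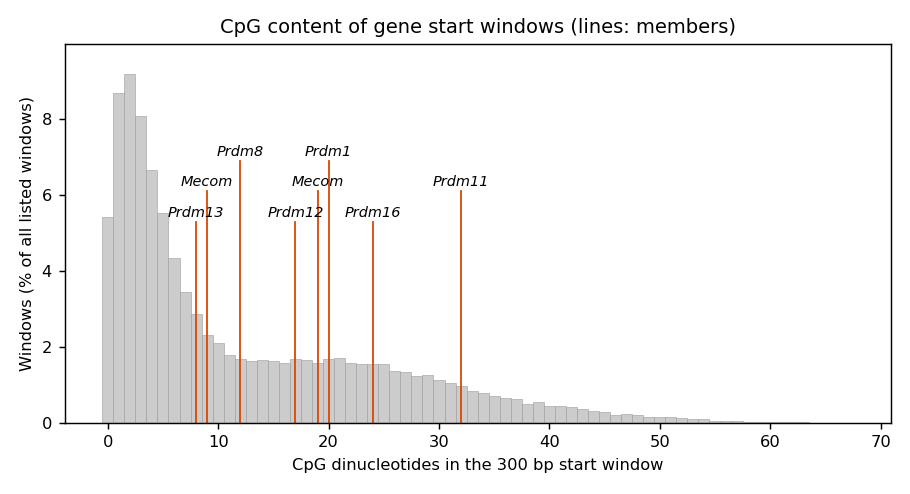
Grey bars give the percentage of all listed start windows (300 bp) by their number of CpG, and each line marks a window of one of the genes, with Mecom marked at both of its starts. The marked windows run from 8 (Prdm13) to 32 (Prdm11), and 7 CpG is the median of all windows.

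Of 6 other genes of the family, Prdm2 and Prdm10 held peaks and Prdm4, Prdm9, Prdm15 and Zfp408 (also called Prdm17) did not. Prdm2 (RIZ), a histone methyltransferase gene on chromosome 4, had 2 regions with hairpin 133 at 24 h, at 143169614 to 143169764 and 143185768 to 143185918. Prdm10, on chromosome 9, had 1 with hairpin 133 at 0 h, at 31337712 to 31337862. Prdm9, which sets meiotic recombination sites, had its nearest peak at 38.4 kb, and Zfp408 at 15.7 kb. For Prdm4 and Prdm15 the nearest peaks were 74.0 and 180 kb away. Over these 15 family genes the peaks numbered 6 and 4 at 0 h and 6 and 11 at 24 h (hairpins 133 and 14), and none of the 3 regions added was listed with both hairpins.

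Among 25 genes of proteins that PRDM factors bind, 4 and 5 had a peak at 0 h (hairpins 133 and 14) and 3 and 2 at 24 h, or 28.0% in any list. Tle3, a Groucho corepressor, had 1 in each list. Smad3, a transducer of TGF-beta signals, had 1, 1, 0 and 2 (hairpins 133 and 14 at 0 h, then at 24 h), Cbfa2t3, an erythroid corepressor, 0, 1, 2 and 0, Ctbp2 1, 2, 0 and 0, and Ctbp1 0, 2, 0 and 0. Neither Ehmt2 nor the histone deacetylases Hdac1, Hdac2 and Hdac3, named after their values were seen, had a peak. A set of 36 genes described upstream or downstream of PRDM factors had peaks at 9 and 9 at 0 h and at 8 and 6 at 24 h, or 41.7% in any list. Pax2, a kidney and hindbrain factor, had 3, 3, 2 and 3 peaks, and Irf4, a partner of Prdm1 in plasma cells, 1, 2, 1 and 1. Ppargc1a, the coactivator of brown fat downstream of Prdm16, had 2, 3, 1 and 0, Meis1, a stem cell homeobox gene, 1, 1, 2 and 0, and Cebpb, a myeloid and fat cell factor, 1, 1, 0 and 1. Both shares stand beside 26.0% of all protein-coding genes, without matching on length.

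By number of peaks in the 4 lists, 18 other protein-coding genes had exactly the counts of Mecom, and those nearest to it in length were Smad3, Tbx5 and Tfap2d (111, 88.7 and 70.9 kb). For Prdm16 there were 12, with Pcnx, Cuedc1 and Pawr nearest in length (141, 95.0 and 82.2 kb). The likeness is a summed difference of 0 over 4 lists of 1 library each and says only that the counts are equal.

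The edge of the 10 kb rule did not fall close to any peak of the 9 genes. The outermost peak counted was the one 3391 bp beyond Prdm12, and the nearest not counted was 29.0 kb from Prdm16, followed by 36.9 kb from Prdm14.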

How the data were processed

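Methyl-CpG immunoprecipitation with MBD2-Fc was sequenced in 6 libraries of I/11 cells, per the labels. Fragments of about 150 bp from 3 ug of DNA were captured with 60 ug of the protein, and the 1 M NaCl eluate was sequenced (labels' protocols). The submitters' processing notes name BWA, Picard, SAMtools, HOMER and mm10, without versions or settings. The deposited peak lists of 4 libraries hold chromosome, start and end in base pairs and no score, count or depth. Peaks are 151 bp wide except 1, and 0-based starts were converted to 1-based.

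Peaks were assigned to the 21900 protein-coding genes of a RefSeq table (GRCm38.p6, the coordinates of mm10, without exons or strand) with Python 3.11.15 and pandas 2.3.3, and merged over lists by an overlap of at least 1 bp. Exact binomial intervals came from SciPy 1.17.1. The counting was checked on simulated peaks. The genes and lists were chosen with earlier results of these data known. Named genes are the 9 members, 6 others of the family, up to 5 genes of each of 2 lists by lists with a peak, then regions, then alphabet, and the 3 genes most alike to Mecom and to Prdm16. All 25 and 36 symbols used matched. Some genes of the family and of these lists are not reported here and are left out of their counts. Strand came from the start table, which has entries for 7 of the 9 members (not Prdm6 or Prdm14). Chromatin, expression and protein sequence were not used here.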

Additional observations from a re-analysis of the deposited data

Results flagged for a closer look

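From 0 h to 24 h the number of peaks at the 9 genes went from 5 to 4 with hairpin 133, a change of -1, and from 4 to 11 with hairpin 14, a change of 7. Mecom is part of these counts, and there the change was -1 with hairpin 133 and 1 with hairpin 14. None of the other genes changed in opposite directions with the hairpins. With 1 library per hairpin and time, the difference between the hairpins was not tested. No group has enough libraries to look for one that stands apart.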

How the results depend on the processing

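Counting with the gene body alone, with 50 kb on either side, by peak centre, or over 15 family genes left each count of genes, peaks and regions within 1.5 times its reported value, as did asking for 50% of each peak to overlap for the counts of regions. Leaving out peaks whose coordinates were identical with both hairpins of a time moved most of them. With it, 3 and 2 genes had a peak at 0 h (hairpins 133 and 14) and 1 at 24 h with hairpin 133, from 3, 2 and 1 peaks, and regions of both hairpins at 0 h, at 24 h and in all 4 lists fell to 0 genes each, by construction for coordinates shared within a time. Leaving out the library of hairpin 14 at 24 h gave 10 regions in place of 16. Within 500 bp of a start or end lay 1 region (6.25%, beside 12.7% of all regions in protein-coding windows). For single genes, Prdm6 and Prdm14 kept 1 region each without identical peaks, and leaving out a 0 h library took Prdm11 (hairpin 133) and Prdm1 (hairpin 14) to 0 and Prdm6 (hairpin 14) to 1. The family, the left-out libraries, the peak and single-gene counts and the body-end distance were added after seeing the data. The shares of genes of at most 25 kb, and of genes by number of regions, were not planned in advance. Over time, libraries pair within a hairpin as 2 pairs. Their differences are given as values with no test, since the genes were chosen with these counts in view. The lists give no depth or score, so neither weak peaks nor missed ones can be judged.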
